A study of Mus musculus with 1 sample.

Results

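Transcript levels of 9 genes of the astrocyte endfoot and its dystroglycan complex were examined in mixed glia from the mouse ventral midbrain (VM). The genes were taken by symbol from a table of 23282 gene rows, and each of the 9 had exactly 1 row. They encode water channels (Aqp4, Aqp1), the dystroglycan receptor and its dystrophin-type partners (Dag1, Dmd, Utrn, Dtna), a pair of astrocyte junction proteins (Mlc1, Hepacam) and a sodium bicarbonate cotransporter (Slc4a4). The study examined inhibition of the kinase SGK1 with GSK650394 in such cultures. A single RNA-seq library of control glia was analysed, so levels are compared between genes within that library and no treatments are contrasted.

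The cultures came from ventral midbrains of ICR (CD-1) outbred mice at postnatal day 5, were expanded in medium with fetal bovine serum and were replated on poly-D-lysine. No genetic change was made. The study describes its control as vehicle (DMSO) glia. The labels mention toxins given with the inhibitor, and they do not say whether the control culture received any. They also do not say how many animals were pooled. A serum-grown monolayer has no vessels, so no endfoot is present on a vessel wall, and a transcript level in it says nothing on where the protein lies. The values were normalised read counts, and their sum over all rows was 27569507. The number of reads behind them is unknown, so no counting interval is given, and with 1 library no value has an error between cultures.

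Astrocytes wrap brain capillaries with flattened processes called endfeet. In the endfoot membrane, dystroglycan binds laminin, agrin and perlecan of the basement membrane outside the cell, and dystrophin or its relative utrophin inside it. Dystrobrevins and syntrophins join this complex, which holds the water channel AQP4 and the potassium channel Kir4.1 at the vessel side. MLC1 and GlialCAM, the products of Mlc1 and Hepacam, form a complex at contacts between astrocytes, and loss of either causes a leukodystrophy with brain oedema in people. SLC4A4 (NBCe1) carries sodium and bicarbonate and sets astrocyte pH.

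All 9 genes had a value of 10 or more, the minimum for calling a gene detected, which 67.2% of all rows reached. Aqp4 had the highest value, 5049. It was followed by Dag1 at 3705, Mlc1 at 3500, Slc4a4 at 2058, Hepacam at 2035, Utrn at 1616, Dtna at 873, Dmd at 677 and Aqp1 at 382. Together the 9 genes held 19895, or 0.0722% of the sum, and Aqp4 alone made up 25.4% of this. The highest value was 13.2 times the lowest. A value grows with the length of the transcript, so genes were compared by level per kilobase, the value per 1000000 of the sum of all values divided by the kilobases of annotated exons.

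On that scale the order changed, and none of the 9 genes kept its place. Mlc1 stood highest with a level of 45.3 per kilobase, above 92.5% of the 15487 detected genes that had an exon length. Aqp4 was next at 29.4 (percentile 88.7), then Hepacam at 22.1 (percentile 85.3) and Dag1 at 21.1 (percentile 84.7). These 4 genes lay at or above percentile 75 of detected genes, as did 16.9% of all rows with an exon length. Slc4a4 was at 6.90 (percentile 64.2) and Aqp1 at 5.27 (percentile 57.9). Both were above the median of detected genes, 3.72, as were 33.8% of all rows with an exon length. Utrn at 3.43 (percentile 48.2), Dtna at 1.87 (percentile 35.0) and Dmd at 1.03 (percentile 24.8) lay below it. The median percentile of the 9 genes was 64.2, where 50 is the median of all detected genes. Levels per kilobase spanned a 43.9-fold range, wider than that of the values.

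**Figure D1:**
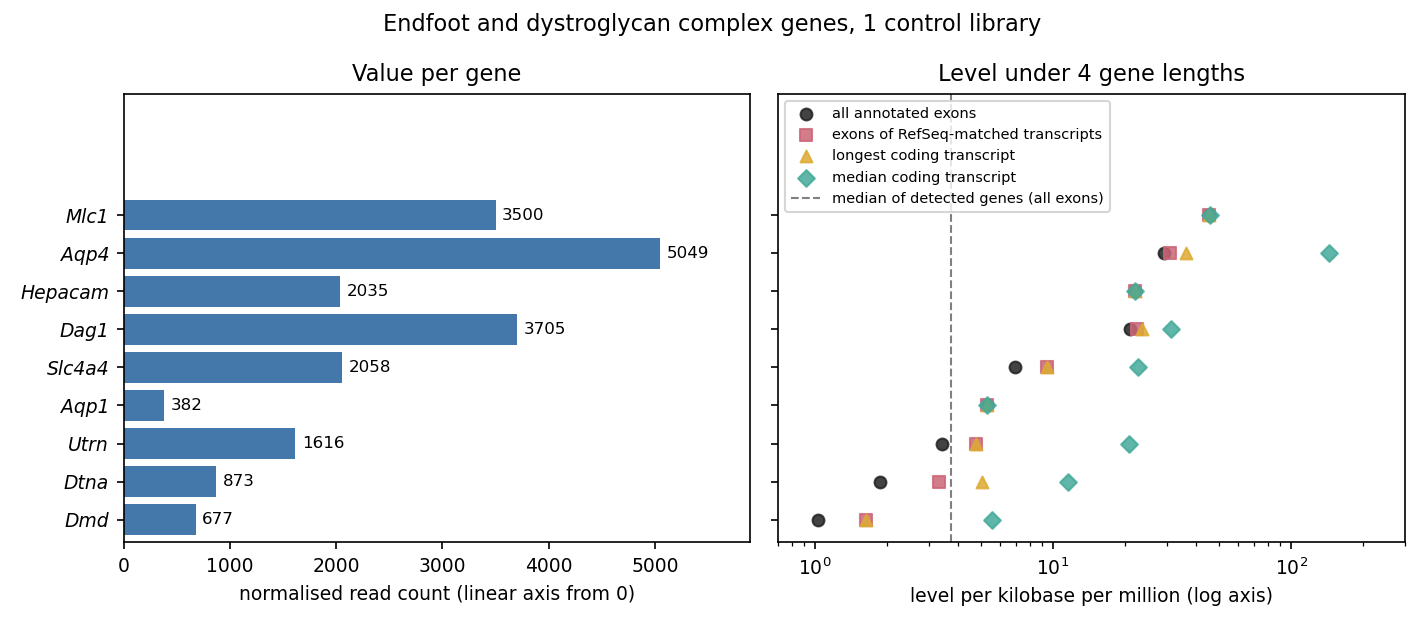
Normalised read count of each of the 9 genes in the control library (left, linear axis from 0) and the level per kilobase per 1000000 under 4 definitions of gene length (right, log axis), ordered by the level over all annotated exons. Mlc1, Hepacam and Aqp1 barely move between lengths, whereas the points of Aqp4, Utrn, Dtna, Dmd and Slc4a4 spread widely, with Dmd lowest under all definitions except the median coding transcript.

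The order of the genes depended on the length used. The exon union holds every annotated exon, including retained introns. With the exons of transcripts that GENCODE matches to RefSeq, the annotation the authors counted on, 7 of the 9 genes kept their place, and Dag1 (22.5 per kilobase) moved just above Hepacam (22.1). On that scale Slc4a4 was at 9.41, Utrn at 4.73, Dtna at 3.33 and Dmd at 1.64. With the longest coding transcript as length, 5 of the 9 kept their place, and Dtna (5.03) moved above Utrn (4.73). Dag1 and Hepacam, and Aqp1, Utrn and Dtna, are therefore close enough that their order rests on the annotation. With the median coding transcript as length, none of the 9 kept its place. Aqp4 (144) was then above Mlc1 (45.5), and Aqp1 (5.27) was lowest, below Dmd (5.53).

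**Figure D2:**
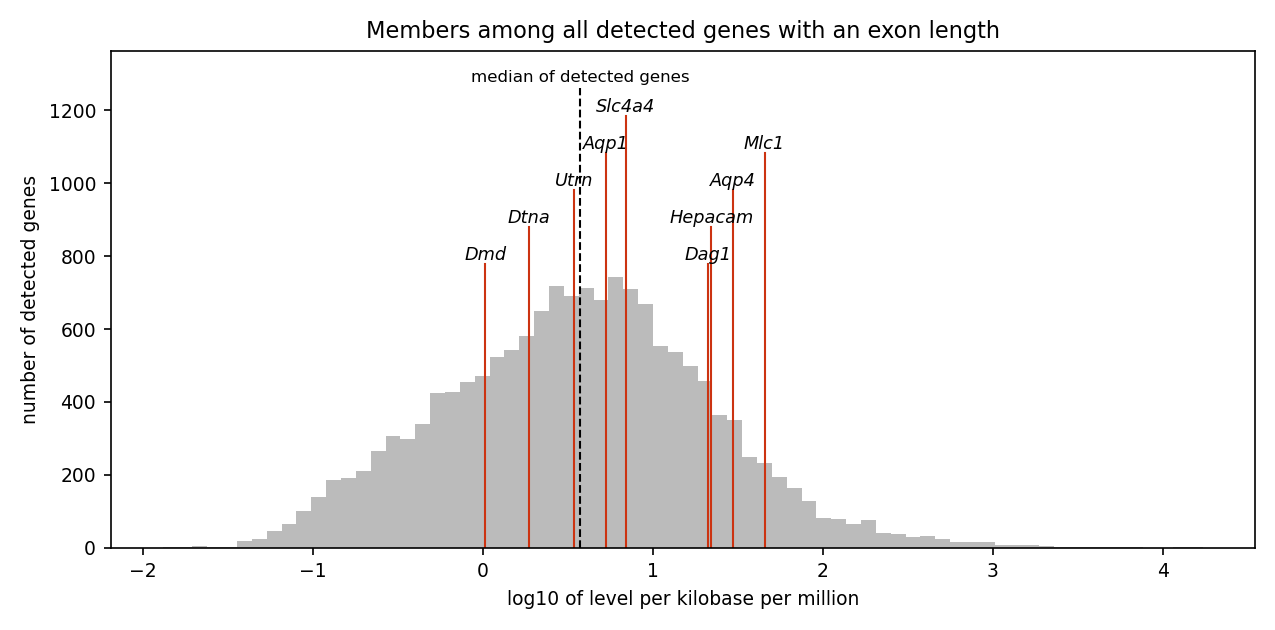
Number of detected genes (value of 10 or more, y axis) by the log10 of their level per kilobase per 1000000 (x axis), with the 9 genes marked by red lines and the median by a dashed line. Mlc1, Aqp4, Hepacam and Dag1 stand on the right flank between 21.1 and 45.3, and Utrn, Dtna and Dmd stand left of the median.

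The water channels differed in level. Aqp4 encodes the main water channel of astrocytes and ependyma and lies on chromosome 18 (15389496 to 15410982, minus strand, GRCm38), with 9 annotated coding transcripts. Aqp1 encodes the water channel of choroid plexus epithelium, red blood cells and peripheral endothelium, and lies on chromosome 6 (55336432 to 55348555, plus strand) with 1 annotated transcript. The level of Aqp4 per kilobase was 5.57 times that of Aqp1. Levels with other gene lengths gave a ratio of 5.88 with RefSeq-matched exons, 13.2 for the values and 27.2 with the median coding transcript, which is short for Aqp4. In each case Aqp4 was higher.

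Most other genes of the aquaporin family were at or near 0. Of 12 family members with a row, 5 were detected (41.7%, against 67.2% of all rows). Aqp7, a channel for water and glycerol known from fat and testis, had a value of 628 and a level of 8.05 per kilobase, above that of Aqp1. Aqp3, a glycerol channel of epithelia, was at a value of 47 and Aqp5, of glands, at 16. Aqp11, an intracellular channel, was at 7 and Aqp9, a channel for water and small solutes, at 6, with Mip at 5 and Aqp8 at 4. Aqp2, Aqp6 and Aqp12 were listed at 0. The median level of the family was 0.0882 per kilobase, and Aqp4 was the only member at or above percentile 75.

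Markers of the cell types that use Aqp1 elsewhere were read beside it. Of 10 choroid plexus epithelium genes 6 were detected, and none reached the median of detected genes per kilobase. Ttr, transthyretin, which is the most abundant transcript of that epithelium, was at a value of 2, Kl and Kcne2 were listed at 0, while Enpp2 at 461 and Folr1 at 229 had the highest values. The levels of this list summed to 8.86 per kilobase. Of 6 red blood cell genes, Epor at 63 and Alas2 at 10 were detected, while Hba-a1 was at 6 and Hbb-b1 and Slc4a1 were listed at 0. Of 8 endothelial genes 5 were detected. Cldn5, the tight junction claudin of brain vessels, was at 3, Tie1 at 2 and Tek was listed at 0, while Pecam1 at 33, Cdh5 at 43, Kdr at 119 and Flt1 at 2427 were detected. Levels summed to 1.57 per kilobase over the red blood cell list and to 8.20 over the endothelial list, of which Flt1 gave 6.52. Several defining markers of these cell types were thus at or near 0 in a library where Aqp1 was at 382, but not all, and the part of such cells in the Aqp1 value was not tested. Ependymal genes, which mark another cell type with Aqp4, were all 8 detected, with Cfap126 at 3173, Foxj1 at 1353 and Tmem212 lowest in value at 14, and the part of such cells in the Aqp4 value was not tested. In this bulk culture, fewer cells of a type and less RNA per cell cannot be told apart.

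Dag1 encodes dystroglycan, a precursor cut into an alpha subunit that binds the matrix and a beta subunit that spans the membrane. It lies on chromosome 9 (108204634 to 108263958, minus strand) and its value of 3705 was above that of 91.4% of detected genes. Its level of 21.1 per kilobase was 6.17 times that of Utrn and 20.5 times that of Dmd, the genes of its intracellular partners. With RefSeq-matched exons these ratios were 4.76 and 13.7, with the median coding transcript 1.499 and 5.64, and for the values 2.29 and 5.47. Dag1 was higher under each measure, but the size of the difference from Utrn rested on the gene length used.

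The matrix ligands of dystroglycan were mostly present. Of 13 ligand genes 12 were detected, 6 lay above the median of detected genes per kilobase, and the median percentile of the list was 45.1. The highest over all exons were Lamb2, the laminin beta 2 chain, at 53.3 per kilobase (value 8940), Lamc1, the gamma 1 chain, at 28.6 (value 6512) and Hspg2, perlecan, at 10.9 (value 4314), although with RefSeq-matched exons Lamb1 (17.7) was above Hspg2 (11.0). Agrn, agrin, was at 8.09 (value 2072). The laminin alpha chains carry the dystroglycan-binding domains. Among them Lama5 was at 5.66 (value 1777) and Lama4 at 2.92 (value 971). Lama2, the chain made by astrocytes at the vessel wall, was at 1.49 (value 673). Their order rested on the gene length. With RefSeq-matched exons Lama4 (5.83) was above Lama5 (5.66) and Lama2 (2.54). With the median coding transcript Lama5 was 0.984 times as high as Lama2. Lama1 was lowest of the detected ligands at 0.0974 (value 26), and Egflam, pikachurin, of the retina, had a value of 7. Lamb2 was 35.7 times and Lamc1 19.1 times as high as Lama2 per kilobase, or 22.7 and 12.2 times with RefSeq-matched exons and 138 and 9.06 times with the median coding transcript. Exons of Lama2 overlap an annotated antisense gene that has no row.

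Alpha-dystroglycan binds laminin only after a long sugar chain is built on it. Of 18 genes for enzymes of this pathway and its sugar donors, 17 were detected (94.4%), and the median percentile was 47.5. B4gat1, which primes the chain, was highest over all exons at 13.4 per kilobase (value 849) and on that length was the only gene of the list at or above percentile 75. With RefSeq-matched exons Dpm2 (22.5) and Dpm3 (16.4) were above B4gat1 (15.2). B4gat1 shares exons with an overlapping gene model on the same strand. Dpm2, of dolichol phosphate mannose synthesis, followed over all exons at 9.94 (value 540) and Rxylt1, listed under its older symbol Tmem5, at 8.48 (value 1312). Pomt1, which adds the first mannose, was at 3.29 (value 584). Large2, a glycosyltransferase, had a value of 1 and was the gene of the list that was not detected.

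Dystrophin and utrophin are large relatives that link dystroglycan to actin. Dmd lies on chromosome X (82948870 to 85206141, plus strand) and spans 2257.3 kilobases with 14 annotated transcripts. Utrn lies on chromosome 10 (12382188 to 12869365, minus strand). Utrn exceeded Dmd in value (1616 against 677) and per kilobase (3.43 against 1.03). The Dmd to Utrn ratio was 0.301 over all exons, 0.347 with RefSeq-matched exons, 0.348 with the longest coding transcript and 0.266 with the median one. Utrn was thus higher wherever the same length rule was applied to both genes. At 4438 bases, the length of the short transcript Dmd-201, Dmd would be at 5.53 per kilobase. That is above the 4.73 of Utrn with RefSeq-matched exons, so the order rests on the transcripts behind the values, which was not tested.

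Reads of such relatives could be confused if their sequences were near identical. The best BLAST alignment of the longest coding transcripts of Dmd and Utrn ran over 1939 positions at 71.2% identity, in the region coding for the end of the protein that binds dystroglycan, dystrobrevin and syntrophin. The longest run shared without a mismatch between the coding sequences had 25 bases. It is given in capitals with 40 bases on each side, as in GENCODE transcripts Dmd-203 (coding bases 9697 to 9801) and Utrn-201 (coding bases 8983 to 9087). Stretches of read length were not compared, so other parts could be more alike over a whole read.
Dmd: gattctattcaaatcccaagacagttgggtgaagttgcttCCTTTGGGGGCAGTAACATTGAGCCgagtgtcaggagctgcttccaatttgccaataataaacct
Utrn: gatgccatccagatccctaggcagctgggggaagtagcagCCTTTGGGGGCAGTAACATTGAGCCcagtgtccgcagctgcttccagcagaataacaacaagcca
Of the bases in this window 80 were identical (76.2%) and 25 differed, and the mismatches lie on both sides of the shared run. No transcript of another gene matched Aqp1, Aqp4, Dag1, Utrn, Mlc1 or Hepacam over 50 bases or more at 95% identity. At the same cut, transcripts of 248 other genes matched Dmd and those of 147 matched Slc4a4. These matches were at most 63 bases long for Dmd and at most 55 for Slc4a4, with the longest of each outside the coding sequence. Their part in the values was not tested. The longest exact run shared by the coding sequences of Aqp4 and Aqp1 had 13 bases.

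The Dmd value sums transcripts from separate promoters. The full-length coding transcript Dmd-203 has 14910 bases. Dmd-201 (4438 bases) and Dmd-202 (1858 bases) start 2099.5 kilobases downstream, at the promoter of the short dystrophin Dp71, the form known as most abundant in brain glia. If all of the value came from a transcript of the median coding length, the level of Dmd would be 5.53 per kilobase, and if it came from the full-length transcript, 1.65. The table cannot tell these forms apart. The 300-base windows around both starts (250 bases before to 50 after, RefSeq on GRCm38.p6, plus strand) are printed because they show how unlike the alternative starts of this gene are, with each CG dinucleotide in capitals.
Dmd start 1, chrX:82948620-82948919: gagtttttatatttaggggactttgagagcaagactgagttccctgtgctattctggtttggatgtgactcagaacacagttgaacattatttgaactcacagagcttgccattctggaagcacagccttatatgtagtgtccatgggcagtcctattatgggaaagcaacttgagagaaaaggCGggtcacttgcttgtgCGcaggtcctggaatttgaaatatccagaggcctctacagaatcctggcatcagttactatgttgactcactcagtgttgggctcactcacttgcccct
Dmd start 2, chrX:85048045-85048344: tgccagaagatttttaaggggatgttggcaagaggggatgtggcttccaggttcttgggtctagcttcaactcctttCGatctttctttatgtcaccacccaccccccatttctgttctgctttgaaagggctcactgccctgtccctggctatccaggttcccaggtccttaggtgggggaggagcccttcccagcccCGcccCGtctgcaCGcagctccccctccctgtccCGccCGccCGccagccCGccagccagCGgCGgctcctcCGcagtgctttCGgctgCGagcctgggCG
The downstream window lies at the RefSeq start, close to those of Dmd-201 and Dmd-202. The upstream window held 2 CG dinucleotides at a GC content of 45.7%, and the downstream window, of the short form, held 14 at 62.7%.

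Among the syntrophins, adaptors that bind dystrophin and dystrobrevin, Sntb2 was at 1.04 per kilobase (value 298) and Sntb1 at 0.150 (value 22). The gamma syntrophins were near the detection minimum, with Sntg2 at a value of 15 and Sntg1 at 9. The level of each of these 4 genes was below the median level of the complex over all exons.

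The dystrobrevins bind syntrophin and dystrophin. Dtna, alpha-dystrobrevin, the glial form, lies on chromosome 18 (23415135 to 23659715, plus strand) and had a value of 873. Dtnb, beta-dystrobrevin, better known from neurons, had a value of 801. Their order turned with the measure. The Dtna to Dtnb ratio was 1.09 for the values, 0.618 per kilobase over all exons and 0.322 with RefSeq-matched exons. With no replicate, the values alone cannot order these 2 genes. A total of 90 exon bases of Dtna overlap an antisense gene that has no row.

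The sarcoglycans, which stabilise dystroglycan in muscle, and sarcospan were uneven in level. Sgcb was at 5.96 per kilobase (value 666). Sgce, named after its value was seen, was at a value of 1635 and 5.59 per kilobase, which became 31.6 with RefSeq-matched exons. Sspn, sarcospan, was at 1.14 (value 157), Sgca at a value of 39 and Sgcd at 33, the last being the lowest detected gene of the complex per kilobase over all exons (0.145, against 0.740 with RefSeq-matched exons). Sgcz had a value of 3. Drp2, a dystrophin relative known from Schwann cells, was at 1.12 per kilobase (value 263). Of all 18 genes of the complex, 15 were detected (83.3%), and 2, Dag1 among them, lay at or above percentile 75. The median percentile was 25.6, below the 50 of all detected genes.

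**Figure D3:**
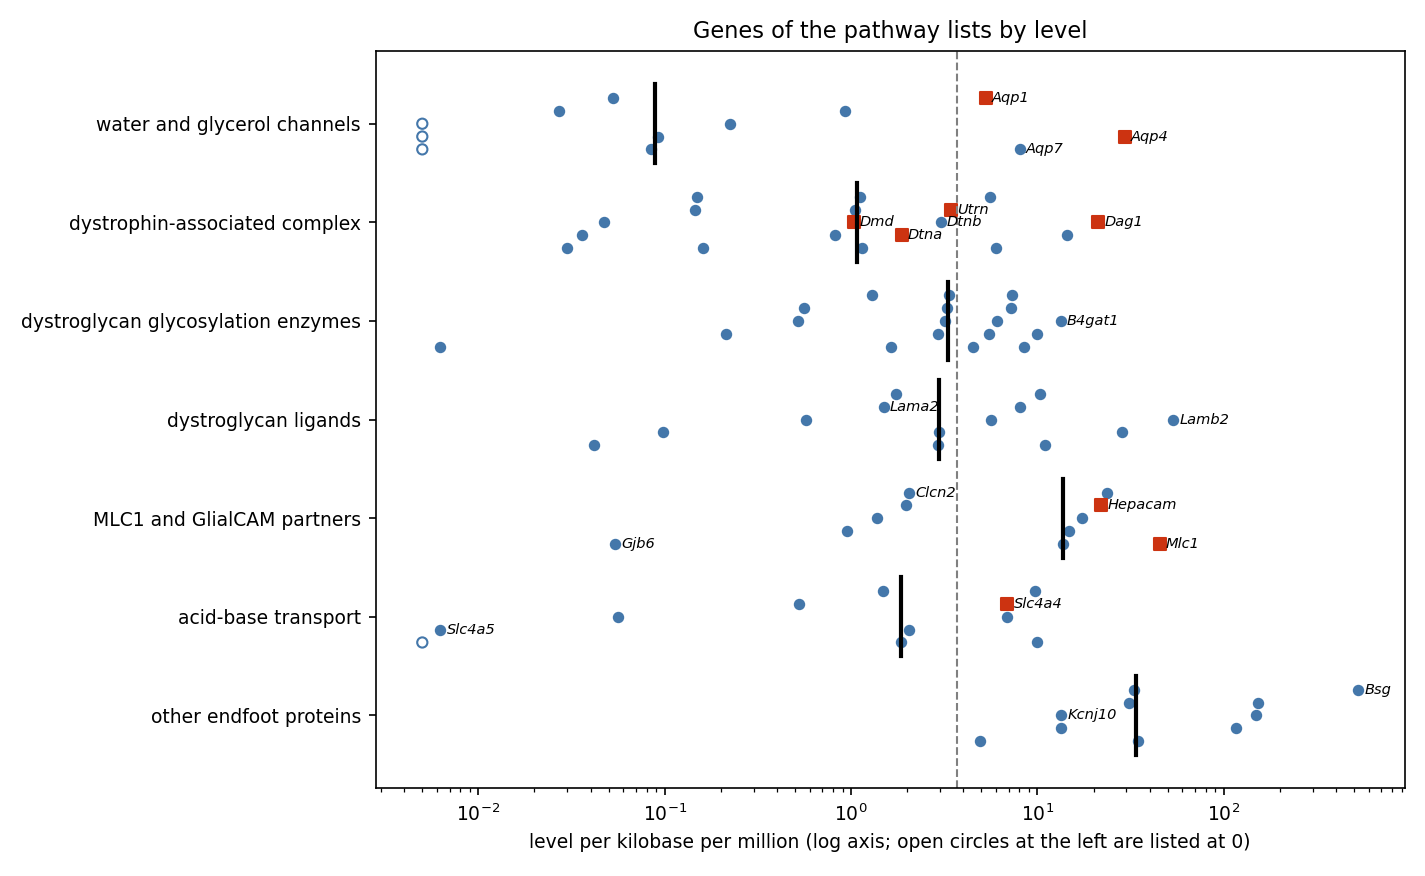
Level per kilobase per 1000000 (log axis) of each gene in 7 lists of endfoot-related genes, with the 9 members as red squares, other genes as blue points, genes listed at 0 as open circles placed at the left edge, list medians as black bars and the median of detected genes as a dashed line. Aqp4, Dag1, Mlc1 and Hepacam lie at the high end of their lists, and the other endfoot proteins lie above the dashed line.

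Skeletal muscle, the tissue in which dystrophin is best known, was checked by 8 markers. Of these 5 were detected and none was at or above percentile 75. Ckm, muscle creatine kinase, was at a value of 1, Myod1 at 5 and Myog was listed at 0, with Acta1 highest at 198. Of 8 smooth muscle and pericyte genes 7 were detected and 3 lay at or above percentile 75, namely Acta2 at 26499, Tagln at 11771 and Cnn1 at 1509. Myh11, the smooth muscle myosin, was at 284, Des at 10 and Rgs5 of pericytes at 9. Fibroblast genes were all 8 detected, from Pdgfra at 188 to Fn1 at 95749. Among Schwann cell genes Foxd3 was listed at 0 and Pmp22 was at 4683. Smooth muscle and fibroblasts also express Utrn, Dag1, Sgcb and Sgce, and their part in these values was not tested.

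Mlc1 encodes the membrane protein of astrocyte contacts that is lost in megalencephalic leukoencephalopathy with subcortical cysts, and Hepacam encodes its adhesion partner GlialCAM. Mlc1 lies on chromosome 15 (88955884 to 88979007, minus strand) and Hepacam on chromosome 9 (37367351 to 37386575, plus strand). Mlc1 was at a value of 3500 and Hepacam at 2035. Per kilobase the ratio was 2.06, and it was 1.72 for the values. The exon length of both genes is simple, with 2 and 1 coding transcripts, and neither shares exon bases with another annotated gene. Each has the same length over all exons, in its longest coding transcript and in RefSeq-matched exons, so the ratio could not change between these. With the median coding transcript it was also 2.06. Relative to Aldh1l1, a folate enzyme that marks astrocytes (20.3 per kilobase), Mlc1 was 2.24 times and Aqp4 1.45 times as high, with RefSeq-matched exons 1.51 and 1.03 times, and with the median coding transcript 1.52 and 4.79 times.

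Partners of the MLC1 and GlialCAM complex covered a wide range. Clcn2, the chloride channel that GlialCAM targets to contacts, was at 2.05 per kilobase (value 341), and Mlc1 was 22.1 times as high, or 11.5 times with RefSeq-matched exons. Short exon overlaps with opposite-strand genes affect Clcn2. Gja1, connexin 43, was at 14.8 (value 4192), rising to 49.5 with RefSeq-matched exons, whereas Gjb6, connexin 30 of mature astrocytes, had a value of 4. Atp1b1, a sodium pump subunit, was at 17.4 (value 1479), and it overlaps an opposite-strand gene. Gpr37l1, an astrocyte receptor, was at 1.97 (value 123), and Trpv4, an osmosensitive channel, was lowest of the detected genes at 0.952 (value 107). Cav1, caveolin 1, was at 23.5 (value 2234). Of 11 genes 10 were detected and 6 lay at or above percentile 75, 4 of the latter besides Mlc1 and Hepacam.

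The RefSeq start windows of Mlc1 and Dag1, both high per kilobase, differed in base composition. They are shown as RefSeq gives them on GRCm38.p6 (300 bases, minus strand, written 5′ to 3′), with CG in capitals, as examples of a CG-poor and a CG-rich start among the members.
Mlc1, chr15:88978504-88978803: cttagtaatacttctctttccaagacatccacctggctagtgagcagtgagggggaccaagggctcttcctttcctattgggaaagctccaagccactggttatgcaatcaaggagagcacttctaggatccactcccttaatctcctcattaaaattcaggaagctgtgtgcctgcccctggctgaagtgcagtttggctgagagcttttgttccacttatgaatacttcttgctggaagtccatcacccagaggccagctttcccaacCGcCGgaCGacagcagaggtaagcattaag
Dag1 start 1, chr9:108263909-108264208: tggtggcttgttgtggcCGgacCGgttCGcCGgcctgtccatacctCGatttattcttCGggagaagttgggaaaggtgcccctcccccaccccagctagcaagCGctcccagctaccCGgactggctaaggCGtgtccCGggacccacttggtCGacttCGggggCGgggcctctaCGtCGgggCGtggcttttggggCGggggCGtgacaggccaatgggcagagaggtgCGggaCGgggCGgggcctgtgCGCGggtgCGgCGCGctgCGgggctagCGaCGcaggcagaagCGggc
The Mlc1 window held 3 CG dinucleotides and the Dag1 window 30, or 0.163 and 0.848 of the number expected from the base content. The Mlc1 window lies inside the GENCODE gene, whose transcripts start upstream of it at base 88979007, whereas the Dag1 window spans its GENCODE start. The 2 windows are therefore not placed alike on that annotation. RefSeq windows of 7 of the 9 genes were counted, 10 windows in all, of which the Dag1 windows overlap. Aqp4 and Dtna were left out of these counts, so the counts do not describe all 9 genes. An observed to expected ratio above 0.6 was found in 3 of the 10, namely both of Dag1 and the upstream one of Slc4a4, against 35.8% of 32851 windows of all genes. On either strand, TATAAA was found in 1 of the 10 windows (13.6% of all), CCAAT in 4 (37.4%) and GGGCGG in 5 (35.7%). None of these features was thus shared by all 10 windows. A match of letters is a description and not a binding site.

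Slc4a4 lies on chromosome 5 (88886818 to 89239653, plus strand), with 7 coding transcripts from alternative starts. Its value of 2058 was above that of 83.4% of detected genes, and its level was 6.90 per kilobase. Among the acid-base genes, Slc4a2, an anion exchanger, was higher at 9.75 (value 2237). Exons of Slc4a2 overlap an opposite-strand gene. The electroneutral cotransporter Slc4a7 was at 1.49 (value 625), so Slc4a4 was 4.63 times as high, or 3.38 times with RefSeq-matched exons and 8.19 times with the median coding transcript. Slc4a10 was at a value of 10 and Slc4a5, a cotransporter of the choroid plexus, at 1. Car2, carbonic anhydrase 2, which supplies bicarbonate, was at 6.84 per kilobase (value 457), and Car4, a membrane-bound form, was listed at 0. Of 11 genes 9 were detected and none was at or above percentile 75.

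Other proteins of the endfoot were at high levels, and 9 of 10 lay at or above percentile 75 (median percentile 90.3). Kcnj10, which encodes Kir4.1, was at 13.4 per kilobase (value 2002), and Aqp4 was 2.19 times as high, 2.31 times with RefSeq-matched exons and 10.7 times with the median coding transcript as length. Bsg, basigin, was at 525 (value 26250), Itgb1, integrin beta 1, at 153 (value 17232) and Gfap, the astrocyte filament protein, at 148 (value 17222). Abcc1, a drug transporter, was lowest at 4.90 (value 2037). Most genes of this list are also expressed by microglia, fibroblasts or other cells, so their levels do not describe endfeet in particular.

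The astrocyte label was checked with 12 markers. Of these 11 were detected, 8 were at or above percentile 75 and the median was 17.5 per kilobase, from Gjb6 at 0.0543 to Gfap at 148. Against these, over all exons, Mlc1, Aqp4, Hepacam and Dag1 lay above the astrocyte median. This changed with RefSeq-matched exons, where Sox9 (29.9) and Aldh1l1 (30.0) were the middle markers. On that length Mlc1 (45.3) and Aqp4 (31.0) lay above both, and Dag1 (22.5) and Hepacam (22.1) below both. Slc4a4 at 6.90 lay between the glutamate transporters Slc1a3 at 7.86 and Slc1a2 at 5.15. With RefSeq-matched exons these 3 genes were further apart, with Slc4a4 at 9.41, Slc1a3 at 16.1 and Slc1a2 at 5.60. Aqp4 was 3.74 times as high as Slc1a3 and 5.70 times as high as Slc1a2, or 1.92 and 5.54 times with RefSeq-matched exons and 5.23 and 4.15 times with the median coding transcript. Microglial genes had a higher median than astrocyte genes, 85.6 per kilobase, from Ptprc at 8.73 to C1qa at 1138. Oligodendrocyte genes were all 8 detected, with Sox10 lowest at a value of 48 and Mbp at 10966. Of 8 neuronal genes 6 were detected (75%, against 67.2% of all rows), and the median percentile of the list was 15.2. Stmn2 at 3802 was the only gene of the list above the median of detected genes per kilobase. Tubb3 was at 124, Rbfox3 at 20 and Syt1 at 6, and Slc17a6 was listed at 0.

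**Figure D4:**
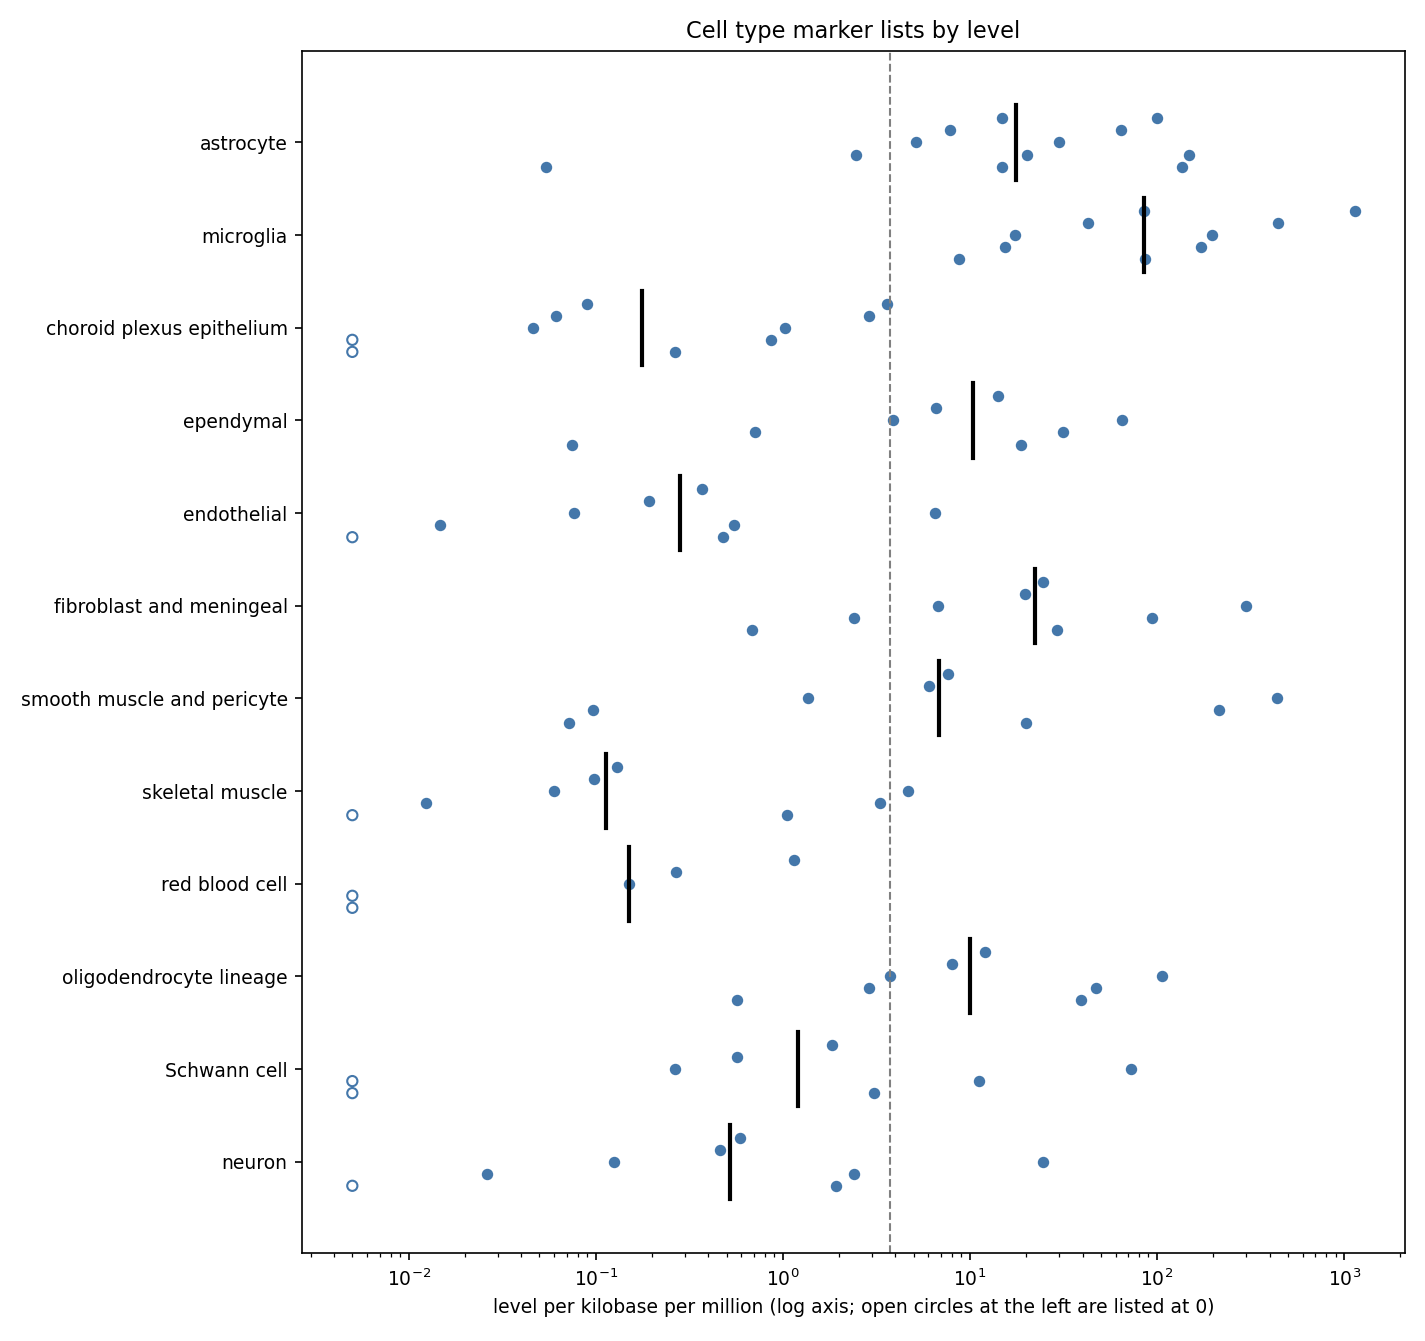
Level per kilobase per 1000000 (log axis) of each gene in 12 cell type marker lists, with genes listed at 0 as open circles at the left edge, list medians as black bars and the median of all detected genes as a dashed line. A gene without an exon length (Hbb-b1) is not drawn. Microglia, fibroblast and astrocyte lists have the highest medians, and choroid plexus, skeletal muscle, red blood cell and endothelial lists the lowest.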

How the data were processed

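RNA of 1 control library of mouse VM-derived mixed glia was sequenced after preparation with a SMARTer mRNA kit. Per the study's methods, the authors removed bases of low quality, mapped reads to GRCm38/mm10 with STAR and counted those on RefSeq exons with HTSeq-count. The submitters' processing notes list TopHat and edgeR instead, without saying what each did. The authors made the deposited values, which are treated as a score here, by counting reads on exons and normalising the counts, and they call them normalised read counts. They are whole numbers that were not taken as raw counts, because the normalisation, strand setting and handling of multi-mapped reads are not given in the sources used here. FPKM values that the study also calculated were not used here. Depth is unknown, and normalisation that acts differently on genes would change every ratio given.

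Genes with a value of at least 10 counted as detected. Levels per kilobase used GENCODE M21 (GRCm38), to which 98.4% of the 23282 rows were matched by symbol or by an older symbol in RefSeq. A percentile is the share of detected genes with a lower level. The percentile step was tested on simulated data. No test between groups was possible. Named genes were the 9 genes, fixed partners and paralogs, the 3 highest and the lowest detected gene of each list, and genes at 0, of which some are not reported here. From each marker list the highest and lowest gene and genes at 0 were named, with some defining markers and relatives added after their values were seen. The 9 genes and the lists were chosen with earlier results of these data known. Alternatives were other gene lengths, no length, minima of 1 and 100, and sums without the highest genes. The RefSeq-matched length was added after the values were seen. BLAST 2.17.0, Python 3.11.15, pandas 2.3.3, numpy 2.4.6 and matplotlib 3.10.9 were used.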

Additional observations from a re-analysis of the deposited data

How the results depend on the processing

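With 1 library no replicate could be left out, so all alternatives concern the processing. A value was taken as moved when it changed by over 1.5 times, or by over 10 points for a percentile. Of 44 checks on counts, medians and ratios, 36 did not move, 7 moved and 1 reversed. The Dtna to Dtnb ratio reversed to 1.09 without division by length, and was 0.322 with RefSeq-matched exons. The Aqp4 to Aqp1 ratio was 27.2 with the median coding transcript as length and 13.2 without division by length. The median percentile of the 9 genes was 83.1 without division by length and 53.9 among genes at 100 or more, the latter because fewer low genes remain in the comparison. Of the 12 aquaporin genes, 9 had a value of at least 1 and 3 reached 100. The Dmd to Utrn ratio did not move under the 4 alternatives, each of which applies the same rule to both genes. The Mlc1 to Hepacam ratio did not move under its 4 alternatives either. For these genes the longest coding and RefSeq-matched lengths equal the all-exon length, so those alternatives could not change it. Percentiles of single members moved in 17 of 54 checks, most often for Dmd and Dtna. Values per 1000000 rose 1.15 times without the 10 highest genes in the sum and 1.02 times without the gene Rn45s. Each factor is the same for every gene, so the 18 checks on the sum only repeat these factors and could not change any order. The cause of the shifts with gene length beyond the change of divisor was not tested.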
